A study of Mus musculus with 16 samples.

Results

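The muscle ankyrin repeat proteins are encoded in the mouse by Ankrd1, Ankrd2 and Ankrd23, and these 3 genes of the 55487 in the deposited count tables are described here. The genes were taken by symbol, and each symbol named 1 row. The family was chosen by its counts in these same libraries, since Ankrd23 was 1 of the 2 genes that passed the test between multiparous and virgin hearts. The difference between those groups is therefore given for the 3 genes as a description, with its error and without a test.

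Hearts of C57Bl/6J mice aged 24 months were compared, from 8 multiparous mice that had gone through more than 3 pregnancies and from 8 virgin mice, to ask what parity by itself does to the heart's transcripts. No mouse was treated. RNA came from the mid section of the left ventricle, after the heart had been flushed with cold saline, and was sequenced after removal of ribosomal RNA. Multiparous libraries are named with the codes P (replicates 1, 2, 5 and 7) or MP (replicates 3, 4, 6 and 8), whose meaning the labels do not give, and all virgin libraries carry the code AA. Parity and library code therefore cannot be told apart between multiparous and virgin hearts.

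Each family member carries a run of ankyrin repeats and binds the N2A segment of titin, the elastic filament of the sarcomere, in the I-band. The proteins also travel to the nucleus, and their genes are known as early responders to stretch and overload of muscle. Ankrd1, or cardiac ankyrin repeat protein (CARP), is the heart's main member. Ankrd2 is best known from slow skeletal muscle, and Ankrd23 (DARP) was described through its response to insulin resistance and diabetes. Ankrd1 is a textbook target of the YAP coactivator, which acts through TEAD factors, and is also driven by GATA4 and NKX2-5.

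Ankrd1 (ENSMUSG00000024803.9) lies at chr19:36111961-36120099 on the minus strand of GRCm38, with 2886 exonic bases. Ankrd2 (ENSMUSG00000025172.3) lies on the same chromosome at chr19:42036000-42045110, plus strand, with 1138 exonic bases. Ankrd23 (ENSMUSG00000067653.12) lies at chr1:36530188-36536883 on the minus strand, with 2697 exonic bases. The 250 bases before each start site that RefSeq annotates (GRCm38.p6) are printed because this is where the family's known regulators would be sought. They run 5′ to 3′ on the strand of the gene. Capitals mark 2 short motifs on either strand. One is CATTCC, the core that TEAD factors bind. The other is AGATAA, bound by zinc-finger factors such as GATA4. The windows are chr19:36119845-36120094 for Ankrd1, chr19:42035777-42036026 for Ankrd2, and chr1:36536557-36536806 and chr1:36535740-36535989 for the first and second start of Ankrd23. These RefSeq starts lie inside the gene spans given above. The windows of Ankrd1 and Ankrd23 therefore fall within those spans, and that of Ankrd2 does in part.
Ankrd1: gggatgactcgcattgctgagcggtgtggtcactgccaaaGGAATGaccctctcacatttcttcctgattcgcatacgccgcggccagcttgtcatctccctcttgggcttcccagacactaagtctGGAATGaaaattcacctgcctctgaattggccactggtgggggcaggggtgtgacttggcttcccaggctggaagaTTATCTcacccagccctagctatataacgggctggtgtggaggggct
Ankrd23, first start: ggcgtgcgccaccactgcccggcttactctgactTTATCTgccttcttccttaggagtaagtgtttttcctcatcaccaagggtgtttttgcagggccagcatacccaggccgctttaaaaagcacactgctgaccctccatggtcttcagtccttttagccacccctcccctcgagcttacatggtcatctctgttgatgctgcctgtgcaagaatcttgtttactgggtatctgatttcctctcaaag
Ankrd23, second start: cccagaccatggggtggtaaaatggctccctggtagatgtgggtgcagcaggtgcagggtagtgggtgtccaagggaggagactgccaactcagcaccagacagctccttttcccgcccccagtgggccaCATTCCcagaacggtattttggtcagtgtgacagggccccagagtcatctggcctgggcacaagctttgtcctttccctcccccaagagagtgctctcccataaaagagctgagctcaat
Ankrd2: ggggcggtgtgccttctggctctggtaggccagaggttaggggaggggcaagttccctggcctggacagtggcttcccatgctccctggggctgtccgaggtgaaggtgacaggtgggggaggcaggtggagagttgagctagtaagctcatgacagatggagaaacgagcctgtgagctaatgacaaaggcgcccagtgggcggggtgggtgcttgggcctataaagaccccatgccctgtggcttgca

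The Ankrd1 window held CATTCC at 2 places and AGATAA at 1. Of the Ankrd23 windows, the first held 1 AGATAA and the second 1 CATTCC, while the Ankrd2 window held neither. Of 32851 RefSeq windows of this length, 12.6% held CATTCC and 9.99% held AGATAA on either strand. AAGTG, the core bound by NKX2-5, was found only in the first Ankrd23 window, against 40.7% of all windows. CANNTG, the E-box bound by muscle basic helix-loop-helix factors, occurred 3 times in the Ankrd2 window, 2 times in the second Ankrd23 window and 1 time in that of Ankrd1, against at least 1 time in 66.2% of all windows. No searched match overlapped another in these windows. A match of letters is a description and does not show that a factor binds there.

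The libraries held 34560606 to 58890976 counts in genes, except for 228325238 in virgin replicate 8. Among 17813 genes tested between multiparous and virgin hearts with edgeR's quasi-likelihood test, 2 passed an adjusted p of 0.05, and 1447 had an unadjusted p under 0.05. The cardiomyocyte markers stood at 51637 to 60222 CPM (counts scaled to a common library size, by library total and TMM factor) in summed level in multiparous hearts and 49977 to 66135 CPM in virgin hearts, which fits the labelled tissue. Transcripts of 12 kidney tubule markers summed to 0.634 to 15.0 CPM in multiparous hearts and 3.76 to 96.9 CPM in virgin hearts. All 10 tested kidney markers had a lower mean in multiparous hearts, with 0 called by edgeR or voom and 10 by DESeq2. The source of the kidney transcripts was not tested. For markers of heart cell types, fewer cells and less RNA per cell cannot be told apart in these bulk samples.

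Levels of different genes were compared per exonic length, as TPM (counts divided by exonic length and scaled to a common total). With all exonic bases as the length, Ankrd1 was the most abundant member, with a mean of 323 ± 87.4 TPM over the 16 libraries (SD). Above it stood 187 of the 17813 tested genes. Ankrd23 averaged 107 ± 28.2 TPM, with 601 tested genes above it. Ankrd2 averaged 0.316 ± 0.187 TPM. Ankrd1 exceeded Ankrd23 in 16 of 16 libraries on this scale, by a ratio of 2.05 to 4.85.

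The order of Ankrd1 and Ankrd23 depends on how many bases of Ankrd23 could be counted. The annotation lists a second gene model on the same strand, Gm42417 (chr1:36530193-36539429), which shares 2109 of the 2697 exonic bases of Ankrd23 and leaves 588 to Ankrd23 alone. Gm42417 itself was counted at 0.0447 ± 0.0412 CPM in multiparous hearts and 0.0328 ± 0.0460 CPM in virgin hearts (SD, n = 8 each). If reads had been counted only over the 588 unshared bases, the Ankrd23 counts would correspond to 493 ± 129 TPM over the 16 libraries, above the value for Ankrd1. With Gm42417 near 0, reads over the shared bases were not counted for both genes. Values on all 2697 bases may therefore set Ankrd23 too low beside Ankrd1 and other genes. The counting mode is not given in the sources used here, so the order of these 2 genes is uncertain. The same gene is compared between groups below, over the same bases.

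Ankrd23 was lower in multiparous hearts. It ranged from 87.2 through a median of 104 to 131.9 CPM in multiparous hearts, against 128.9 through a median of 167.0 to 207 CPM in virgin hearts. Every multiparous library, 8 of 8, stood under the mean virgin level, and the groups overlapped by 1 library each: multiparous replicate 7, at 131.9 CPM, stood above virgin replicate 6, at 128.9 CPM. The means were 106.3 ± 15.1 CPM in multiparous hearts and 166.8 ± 27.6 CPM in virgin hearts (SD, n = 8 each). The log2 fold change, multiparous minus virgin, was -0.65 (SE 0.10, 95% interval -0.86 to -0.44), which is a ratio of 0.638 (0.551 to 0.738).

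Ankrd1 was spread widely in both groups. It ranged from 235 through a median of 396 to 564 CPM in multiparous hearts, against 345 through a median of 494 to 575 CPM in virgin hearts. The groups overlapped over most of their range, since 5 of 8 multiparous libraries stood above the lowest virgin one and 6 of 8 lay below the virgin mean. The means were 391 ± 112 CPM in multiparous hearts and 479 ± 88.2 CPM in virgin hearts. The log2 fold change was -0.29 (SE 0.16, 95% interval -0.62 to 0.04).

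Ankrd2 was close to the limit of detection in every library. Its raw counts were 7, 9, 16, 5, 3, 9, 4 and 4 in multiparous replicates 1 to 8, against 13, 0, 11, 10, 13, 3, 9 and 27 in virgin replicates 1 to 8. The groups overlapped fully. The count of 0 in virgin replicate 2 allows a level of up to 0.0742 CPM (3 counts), and the 27 counts of virgin replicate 8 come from the deepest library and correspond to 0.121 CPM. Pooled over libraries, 57 counts gave a pooled level, without the TMM factor, of 0.151 CPM in multiparous hearts (exact Poisson 95% interval 0.115 to 0.196) and 86 counts gave 0.161 CPM in virgin hearts (0.128 to 0.198). Ankrd2 did not pass the filter on low counts. With it added to the fit, the log2 fold change came to -0.23 (SE 0.45, interval at 95% -1.17 to 0.71). That interval leaves room for a difference in either direction at this depth.

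Of the 3 members, 2 could be tested in this comparison and 1 of these, Ankrd23, was called, where 0.0112% of all tested genes were called. Nothing is read from that count, because this contrast chose the family. The call itself was lost in 9 of 16 fits that left out 1 library, while the log2 fold change stayed between -0.70 and -0.60 in them.

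**Figure D1:**
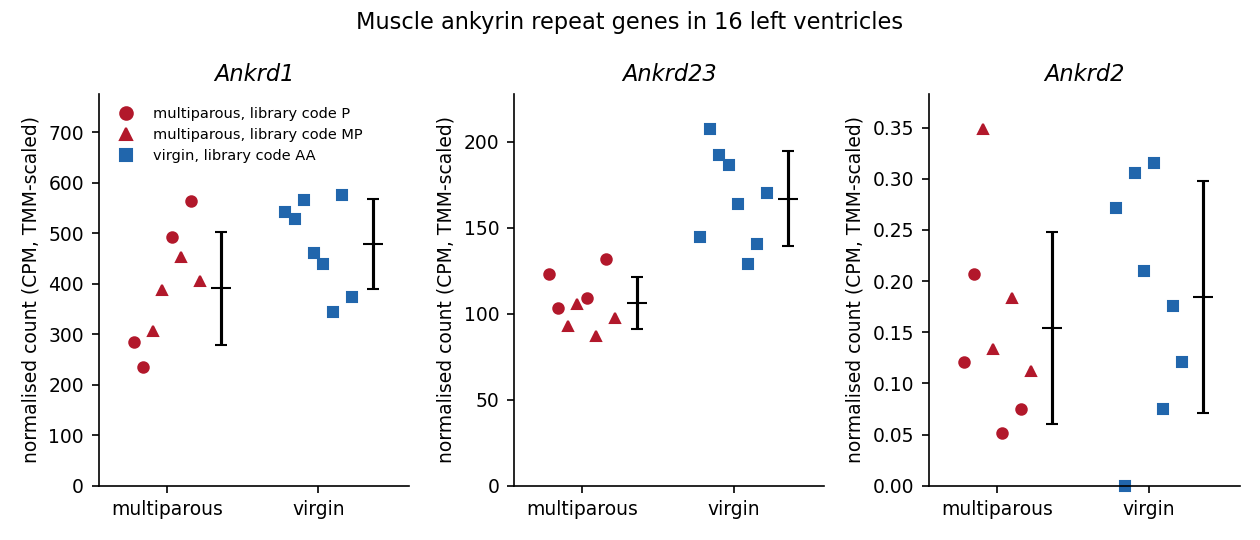
Normalised counts (CPM, scaled by TMM) of Ankrd1, Ankrd23 and Ankrd2 in each library, multiparous on the left and virgin on the right of each panel, in order of replicate number. Black bars give the mean and SD of 8 libraries. Ankrd23 lies at 87.2 to 131.9 CPM in multiparous hearts, against 128.9 to 207 CPM in virgin ones, the Ankrd1 groups overlap widely, and Ankrd2 stays under 0.35 CPM.

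Because the library codes split the multiparous hearts into 2 sets of 4, the members were also compared between the sets, a comparison that did not choose the family. Ankrd23 measured 92.6, 105.5, 87.2 and 97.7 CPM in MP-coded hearts, against 123.3, 103.2, 109.2 and 131.9 CPM in P-coded hearts. Of the P-coded libraries, 3 stood above the highest MP-coded one, and P-coded replicate 2 stood below it. The means were 95.7 ± 7.78 CPM in MP-coded and 116.9 ± 13.1 CPM in P-coded hearts (SD, n = 4 each). The log2 fold change, MP minus P, was -0.29 (SE 0.08, 95% interval -0.47 to -0.10) and did not pass over the 18123 genes tested (edgeR adjusted p = 0.232, unadjusted p = 0.00610).

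Ankrd1 did not pass the test between the sets. It measured 307, 388, 452.0 and 404 CPM in MP-coded hearts, against 285, 235, 493 and 564 CPM in P-coded hearts. The 2 lowest and the 2 highest multiparous libraries were all P-coded, and the MP-coded libraries lay between them. The spread of the sets was not tested against each other. The means were 388 ± 60.5 CPM in MP-coded and 394 ± 159 CPM in P-coded hearts, with a log2 fold change of -0.02 (SE 0.24, 95% interval -0.56 to 0.51, edgeR adjusted p = 0.986). That interval does not show that the sets were alike.

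Of the 2 members tested between the sets, 0 were called by edgeR and 1 had an unadjusted p under 0.05, where 22 of 18123 genes, 0.121%, were called. DESeq2 called neither member. Ankrd2 had 16, 5, 9 and 4 counts in MP-coded hearts, against 7, 9, 3 and 4 counts in P-coded hearts, and did not pass the filter. The kidney marker sum also differed between the sets, at 5.15 to 15.0 CPM in MP-coded and 0.634 to 2.41 CPM in P-coded hearts without overlap. Of 5 kidney markers tested between the sets, 3 were called, all higher in MP-coded hearts.

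Both sets were then placed beside the same 8 virgin hearts, which they share as controls. Ankrd23 had a log2 fold change of -0.80 (SE 0.12) for MP-coded minus virgin and -0.52 (SE 0.12) for P-coded minus virgin. For Ankrd1 the values were -0.30 (SE 0.14) for MP-coded and -0.28 (SE 0.21) for P-coded hearts. Ankrd23 was not called in either fit, where 0 genes passed for MP-coded and 97 for P-coded hearts (edgeR). With the kidney marker sum as a covariate, the log2 fold change of Ankrd23 between all multiparous and virgin hearts was -0.82 (SE 0.14) and that of Ankrd1 was -0.29 (SE 0.24). Ankrd23 was no longer called in that fit, where 0 genes were (edgeR).

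**Figure D2:**
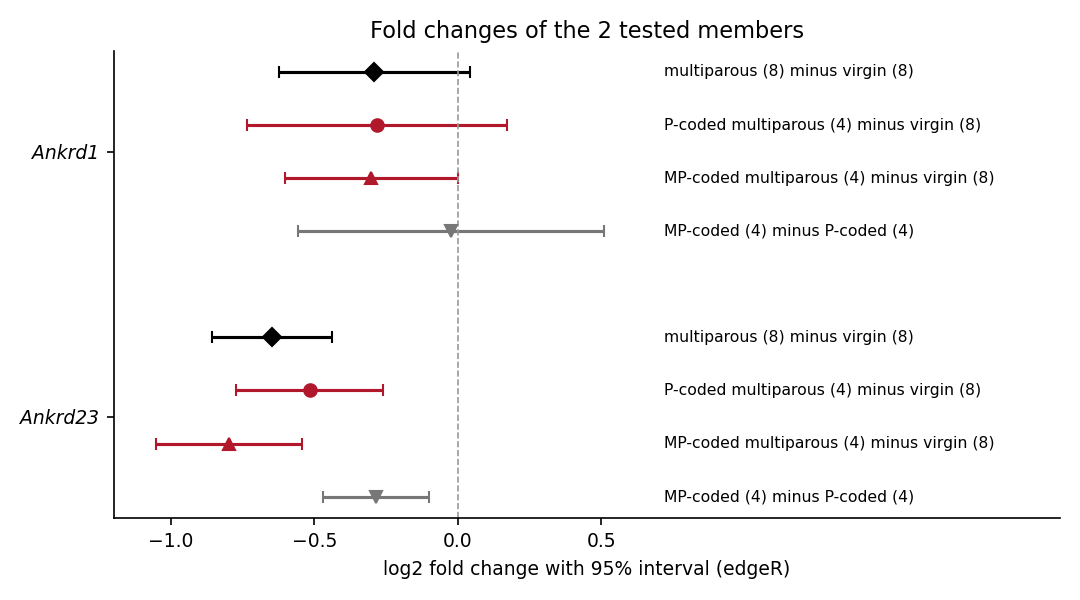
Log2 fold changes (points) with 95% intervals (bars) from edgeR for Ankrd1 and Ankrd23 in 4 contrasts, with the number of libraries in parentheses. Against virgin hearts the Ankrd23 points lie at -0.80 for MP-coded and -0.52 for P-coded hearts, and the Ankrd1 points at -0.30 and -0.28. The contrasts with virgin hearts share the virgin libraries and are a description, since they chose the family.

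The balance of the 2 abundant members was taken as the ratio of Ankrd1 to Ankrd23 TPM. It averaged 3.47 ± 0.968 in multiparous hearts (range 2.13 to 4.85) and 2.73 ± 0.618 in virgin hearts (range 2.05 to 3.83; SD, n = 8 each). The ranges overlapped, and multiparous replicates 1 and 2, both P-coded, had the lowest ratios of their group at 2.16 and 2.13. These ratios carry the uncertainty on the bases of Ankrd23 and may be too high. They also inherit the choice of the family, so they were not tested.

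Within a group, no relation between the 2 abundant members was detected. Across the 8 multiparous hearts, log2 CPM of Ankrd1 and Ankrd23 gave Pearson's r = 0.18 (exact permutation p = 0.655, adjusted over 6 pairs 0.723) and Spearman's rho = 0.21 (exact permutation p = 0.619, adjusted 0.797). Across the 8 virgin hearts r was 0.31 (exact permutation p = 0.444, adjusted 0.723) and rho 0.19 (exact permutation p = 0.665, adjusted 0.797). Leaving out the 2 libraries farthest from the median of Ankrd1 turned r to -0.34 in multiparous and -0.19 in virgin hearts. With 8 hearts a group, a weak relation could not have been detected.

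Ankrd2 was compared in the same way, on values near the count floor. Across multiparous hearts it gave r = -0.65 with Ankrd1 (exact permutation p = 0.0796, adjusted 0.278; rho = -0.69, p = 0.0694, adjusted 0.249) and r = -0.63 with Ankrd23 (exact permutation p = 0.0928, adjusted 0.278; rho = -0.67, p = 0.0831, adjusted 0.249). Without the 2 libraries farthest from the median of Ankrd1 in the first pair, and of Ankrd2 in the second, r was -0.55 and -0.72. Across virgin hearts r was 0.16 with Ankrd1 (exact permutation p = 0.723, adjusted 0.723; rho = 0.29, p = 0.501, adjusted 0.797) and -0.24 with Ankrd23 (exact permutation p = 0.591, adjusted 0.723; rho = 0, p = 1, adjusted 1). Without the 2 farthest libraries, chosen alike, these were -0.15 and 0.14. Leaving out virgin replicate 2 alone, the library with 0 counts of Ankrd2, gave r = 0.73 with Ankrd1 and 0.54 with Ankrd23 (exact permutation, adjusted p = 0.186 and 0.324). None of the 6 pairs passed the adjusted threshold.

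**Figure D3:**
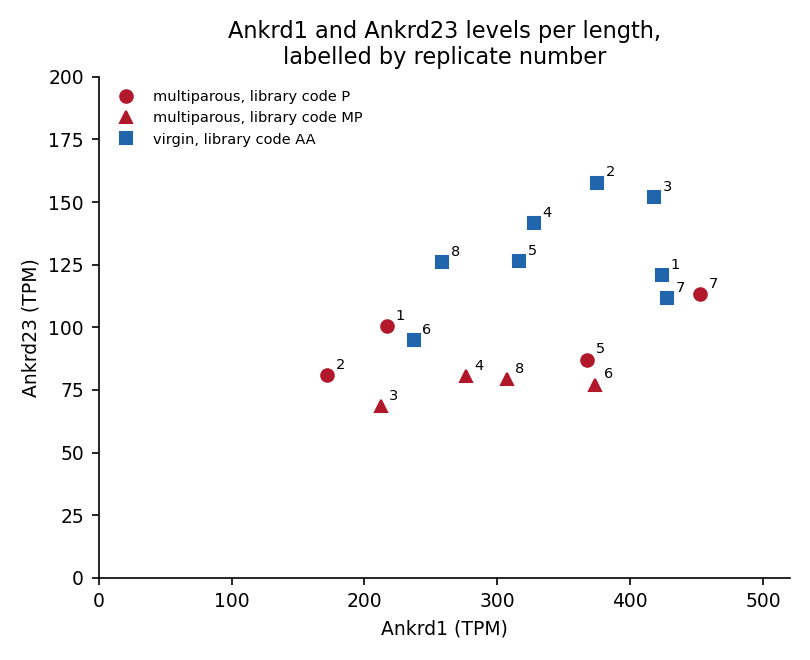
Ankrd23 against Ankrd1 in TPM in each library, with the replicate number beside the point. Most multiparous points lie below the virgin points of like Ankrd1 level, replicates 1 and 7 excepted, and within neither group do the points follow a line (r = 0.18 in multiparous and 0.31 in virgin hearts on log2 CPM).

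The spread between hearts was set side by side as the SD of log2 CPM. For Ankrd1 it was 0.43 in multiparous and 0.28 in virgin hearts (two-sided exact permutation p = 0.187 over all 12870 assignments, adjusted over 3 genes 0.489). For Ankrd23 it was 0.20 in multiparous and 0.24 in virgin hearts (exact permutation p = 0.489, adjusted 0.489), and for Ankrd2 it was 0.67 in multiparous and 1.11 in virgin hearts (exact permutation p = 0.461, adjusted 0.489). None of these differences in spread passed the threshold. That of Ankrd2 rested on the library with a count of 0, since the difference in SD, multiparous minus virgin, was -0.44 with virgin replicate 2 and 0.05 without it.

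Across individual hearts, each abundant member had a different set of genes with the most similar pattern. Log2 CPM was centred on the mean of the multiparous or virgin group, so that the difference between these groups played no part. It was compared over 16 libraries with 9941 genes of at least 5 CPM. The P-coded and MP-coded sets were not centred, so a difference between them enters every r below that includes multiparous hearts. The highest Pearson r with Ankrd23 belonged to Ckap4 (0.91), which encodes a membrane protein of the endoplasmic reticulum, Ypel2 (0.90), Lsmem2 (0.88), Cry1 (0.86), a repressor of the circadian clock, and Rcan1 (0.86), an inhibitor of calcineurin. The highest r with Ankrd1 belonged to Cpeb1 (0.89), which binds the tails of messenger RNAs and controls their translation, Wwp2 (0.87), a ubiquitin ligase, Dnajc1 (0.82), a co-chaperone, Tmem140 (0.81) and Nub1 (0.81). These are the highest of 9941 values each, with a median of 0.04 over all genes for Ankrd23 and -0.04 for Ankrd1, and they carry no test.

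For the gene closest to each abundant member, r was also taken within each group. That gene was chosen by its r over the same libraries, so a high r within both groups follows largely from the choice. For Ckap4 and Ankrd23, r was 0.97 within multiparous and 0.91 within virgin hearts. For Cpeb1 and Ankrd1, r was 0.92 within multiparous and 0.83 within virgin hearts. Skil (0.84), Txnrd1, Apold1, Anapc10 and Khk (0.74) came closest to Ankrd2, whose own values rest on 0 to 27 counts a library.

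Some genes of the stretch and wall stress, partner, regulator and target lists also followed a member from heart to heart, and they are named here after their values were seen. Nppb, which encodes the B-type natriuretic peptide released by strained ventricle, had r = 0.86 with Ankrd23 (0.90 within multiparous and 0.82 within virgin hearts) and 0.35 with Ankrd1. Nppb measured 93.0 to 236 CPM in multiparous hearts, against 125 to 356 CPM in virgin ones. Multiparous replicate 7 was the highest of its group for both genes, and virgin replicates 2 and 3 were the 2 highest of theirs for both.

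Gata4, a cardiac transcription factor, followed Ankrd23 at r = 0.78, as did Xirp1, an actin-binding protein of the intercalated disc, at 0.71. Tcap, the Z-disc protein telethonin that caps titin, ran opposite to Ankrd23 at r = -0.80 (-0.94 within multiparous and -0.69 within virgin hearts). Ankrd1 was followed most closely among the listed genes by Ccn2 at 0.78 (0.85 within multiparous and 0.65 within virgin hearts), a secreted matricellular protein and YAP target, and by Nppa, the atrial natriuretic peptide, at 0.68. Fhl2, a LIM protein that also binds titin, ran opposite to Ankrd1 at -0.75. Over the 22 stretch and wall stress genes, the median r was 0.33 with Ankrd23 and -0.11 with Ankrd1. The lists that hold Ccn2 and Gata4 had lower medians than these 2 genes. Over the 22 YAP and TEAD targets, the median r with Ankrd1 was 0.17, with 17 positive. Over the 21 tested regulators, the median r with Ankrd23 was 0.20, with 13 positive.

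Markers of other cell types and tissues ran with the members as well, some of them more closely than the stretch list. With Ankrd23, the median r was 0.51 over 7 endothelial markers, 6 of them positive (Cdh5, the endothelial cadherin, at 0.69), and 0.22 over 10 cardiomyocyte markers. It was -0.32 over 7 macrophage and leukocyte markers, all negative. All 10 tested kidney tubule markers ran against Ankrd23, with a median r of -0.31. The most negative, Kap, was at -0.60 (-0.88 within multiparous and -0.32 within virgin hearts). Kap also differed between the library codes, at a log2 fold change, MP minus P, of 3.91 (edgeR adjusted p = 0.0102). That difference is part of its r within multiparous hearts. With Ankrd1, the median r was 0.45 over 7 fibroblast markers, 6 of them positive, -0.34 over 10 cardiomyocyte markers and -0.01 over the kidney markers. The part of these markers in the heart-to-heart pattern was not tested.

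**Figure D4:**
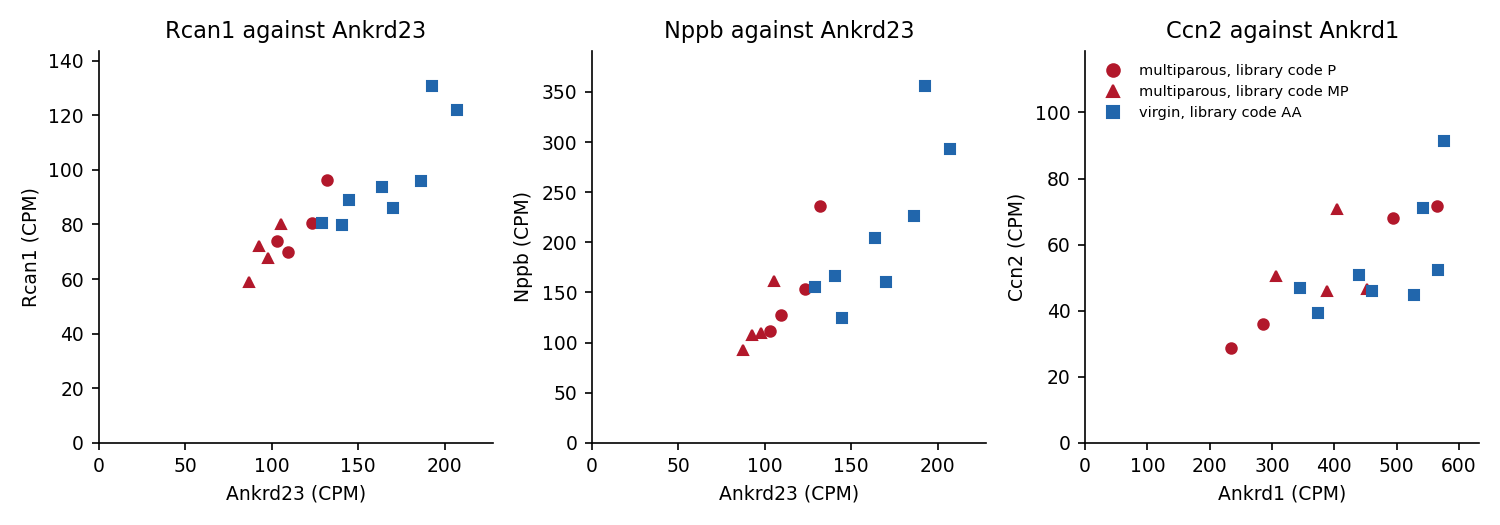
CPM of Rcan1 and Nppb against Ankrd23, and of Ccn2 against Ankrd1, in each library. Rcan1 and Nppb climb with Ankrd23 within the multiparous and within the virgin libraries (r = 0.86 each after centring on group), and Ccn2 climbs with Ankrd1 (r = 0.78).

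None of the family's binding partners passed the test between multiparous and virgin hearts. Of 16 genes for titin N2A and Z-disc partners, 0 were called by edgeR, DESeq2 or voom and 0 had an unadjusted p under 0.05, 8 higher and 8 lower in multiparous hearts, and the median log2 fold change was -0.0016. Over all 17813 tested genes, 48.6% were higher in multiparous hearts and the median was -0.0030. Ttn, titin itself, measured 21885 ± 4735 CPM in multiparous hearts, against 21871 ± 4531 CPM in virgin ones. Mypn, the Z-disc and I-band protein myopalladin that binds Ankrd1, measured 213.5 ± 17.0 CPM in multiparous hearts, against 233 ± 31.0 CPM in virgin ones (edgeR adjusted p = 0.725). Tcap measured 396 ± 94.5 CPM in multiparous hearts, against 334 ± 83.7 CPM in virgin ones (edgeR adjusted p = 0.765). Trp53, the tumour suppressor p53 with which Ankrd2 interacts, had a log2 fold change of -0.14 and Des, desmin, one of -0.09 (edgeR adjusted p = 0.695 and 0.724).

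None of the known transcriptional regulators of the family passed either. Of 22 such genes, 21 were tested and 0 were called by edgeR, DESeq2 or voom, with 0 at an unadjusted p under 0.05, 12 higher and 9 lower in multiparous hearts, and a median log2 fold change of 0.0060. Tead1, the main cardiac TEAD factor, measured 411 ± 21.9 CPM in multiparous hearts, against 434 ± 31.3 CPM in virgin ones (edgeR adjusted p = 0.741). Yap1 measured 131.8 ± 7.65 CPM in multiparous hearts, against 131.6 ± 8.42 CPM in virgin ones, and Gata4 145 ± 13.3 CPM in multiparous hearts, against 149.8 ± 15.4 CPM in virgin ones. Myocd and Srf, partners in muscle gene activation, had log2 fold changes of -0.08 and -0.10, and Tbx5, a cardiac T-box factor, one of 0.11 (edgeR adjusted p = 0.752, 0.778 and 0.765).

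Of 16 Hippo pathway genes, which restrain YAP, 0 were called by edgeR, DESeq2 or voom, 1 had an unadjusted p under 0.05, and the median log2 fold change was 0.0015 with 8 higher and 8 lower. The 1 gene was Wwc1, an upstream Hippo protein known as KIBRA, at 0.504 ± 0.358 CPM in multiparous hearts, against 1.38 ± 0.966 CPM in virgin ones (log2 fold change -1.46, SE 0.48, edgeR adjusted p = 0.352). Like the kidney marker sum, Wwc1 had a lower mean in multiparous than in virgin hearts. Its log2 fold change, MP minus P, was 0.84 (edgeR adjusted p = 0.659), the same direction as that of the kidney marker sum. The part of kidney transcripts in the Wwc1 values was not tested. Mob1b, Frmd6 and Lats1 had log2 fold changes of -0.09, -0.10 and 0.06.

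Of 22 other YAP and TEAD target genes, 15 were higher and 7 lower in multiparous hearts, with a median log2 fold change of 0.019. None was called by edgeR or voom and 1, Igfbp3, by DESeq2, and 4 had an unadjusted p under 0.05, all with a higher mean in multiparous hearts. Igfbp3, which binds insulin-like growth factors, measured 31.0 ± 5.96 CPM in multiparous hearts, against 21.99 ± 4.95 CPM in virgin ones (log2 fold change 0.50, SE 0.13, edgeR adjusted p = 0.207). Axl, a receptor tyrosine kinase, had a log2 fold change of 0.26, Ccdc80 one of 0.24 and Ptpn14, which binds YAP, one of 0.15 (edgeR adjusted p = 0.423, 0.493 and 0.531). Ccn2 measured 52.2 ± 16.3 CPM in multiparous hearts, against 55.3 ± 17.3 CPM in virgin ones.

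Stretch and wall stress genes of cardiomyocytes leaned towards lower means. Of 22 tested, 18 had a lower and 4 a higher mean in multiparous hearts, with a median log2 fold change of -0.14. None was called by edgeR or voom and 2, Synpo2l and Csrp3, by DESeq2, and 7 had an unadjusted p under 0.05. Synpo2l, a Z-disc actin regulator, measured 166 ± 11.8 CPM in multiparous hearts, against 193 ± 16.7 CPM in virgin ones (log2 fold change -0.21, SE 0.05, edgeR adjusted p = 0.190).

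Csrp3, the Z-disc muscle LIM protein, measured 552 ± 22.98 CPM in multiparous hearts, against 623 ± 48.0 CPM in virgin ones (log2 fold change -0.17, edgeR adjusted p = 0.217). Rcan1 had a log2 fold change of -0.37 and Hspb7, a cardiac small heat shock protein, one of -0.19 (edgeR adjusted p = 0.266 and 0.273). The natriuretic peptides went opposite ways without passing the test, Nppb at a log2 fold change of -0.61 (SE 0.21) and Nppa at 0.75 (SE 0.30) (edgeR adjusted p = 0.394 and 0.511). Beside these, all 10 cardiomyocyte markers had a lower mean in multiparous hearts, at a median log2 fold change of -0.08, with 0 called by edgeR, DESeq2 or voom and 1 at an unadjusted p under 0.05, and their part in the stretch gene values was not tested.

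**Figure D5:**
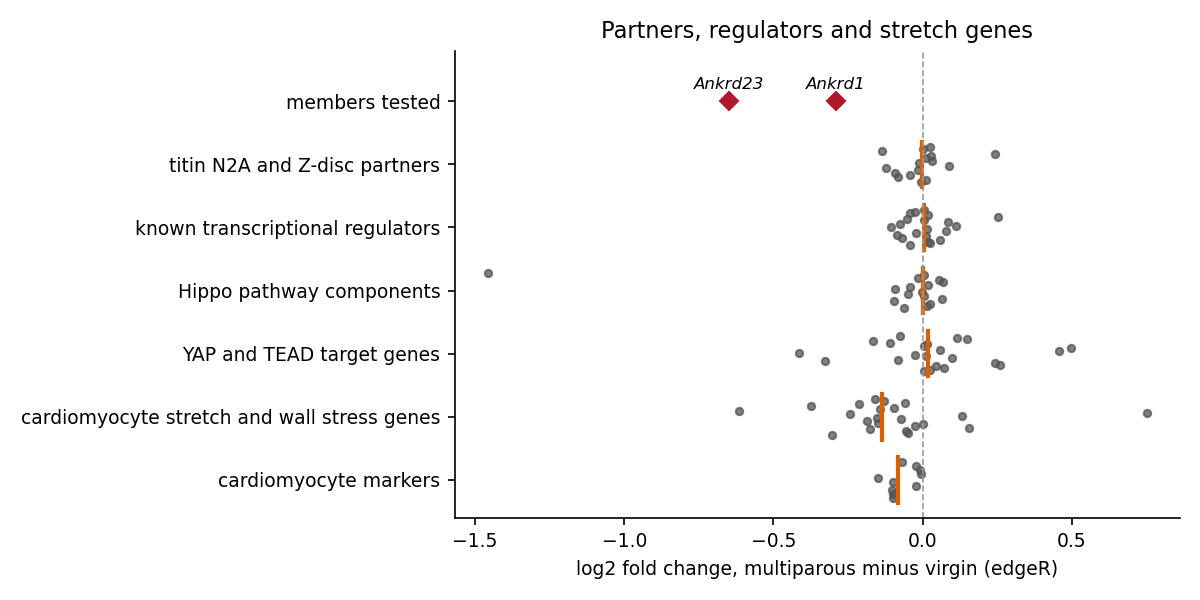
Log2 fold change, multiparous minus virgin (edgeR), of the 2 tested members (diamonds) and of each tested gene in 6 lists (dots), with the list median as an orange bar. The medians run from -0.14 for the stretch and wall stress genes to 0.019 for the YAP and TEAD targets, and Ankrd23 lies at -0.65.

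Other cell types were followed through their markers. Of 7 fibroblast markers, 6 had a higher mean in multiparous hearts, and their sum ranged from 1321 to 2010 CPM in multiparous and from 1235 to 1699 CPM in virgin hearts. The 7 macrophage and leukocyte markers all had a higher mean in multiparous hearts, with sums of 160 to 287 CPM in multiparous hearts, against 147 to 317 CPM in virgin ones. Endothelial markers summed to 936 to 1101 CPM in multiparous hearts, against 854 to 1096 CPM in virgin ones, and smooth muscle and pericyte markers to 1604 to 1881 CPM in multiparous hearts, against 1277 to 1806 CPM in virgin ones. For the smooth muscle list the median log2 fold change was -0.26 while the mean sum was higher in multiparous hearts, 1717 against 1642 CPM. The 6 atrial markers summed to 50.9 to 143 CPM in multiparous hearts, against 45.9 to 127 CPM in virgin ones. Nppa, which is also in the stretch list, made up most of that sum. It measured 66.6 ± 26.0 CPM in multiparous hearts, against 39.5 ± 26.4 CPM in virgin ones. None of the genes in these lists was called by edgeR or voom, and 1, the fibroblast marker Gsn, was called by DESeq2. At an unadjusted p under 0.05 stood 3 fibroblast, 3 smooth muscle and 1 atrial marker, the last being Nppa. The part of these cell types in the member values was not tested.

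Markers of fast skeletal muscle were few, while none of slow skeletal muscle, the site best known for Ankrd2, was listed. Of 12 skeletal markers 5 passed the filter, and the sum was 11.2 to 20.8 CPM in multiparous hearts, against 12.5 to 24.6 CPM in virgin ones. Most of that sum was Mybpc2, fast myosin-binding protein C, at 12.3 ± 2.91 CPM in multiparous hearts, against 17.6 ± 3.93 CPM in virgin ones (edgeR adjusted p = 0.266). The fast myosin gene Myh4 was at 0 in 9 of 16 libraries, Myh2 in 7 and Myh1 in 6, and the fast troponin C gene Tnnc2 was at 0 in 11.

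Other genes that share the naming stem with the family were taken as a comparison. Of 44 other genes named Ankrd and a number, 32 were tested, 13 were higher and 19 lower in multiparous hearts, and the median log2 fold change was -0.04. None was called by edgeR, DESeq2 or voom, and 3 had an unadjusted p under 0.05. The 3 most abundant per length were Ankrd40 at 103.4 ± 3.03 TPM in multiparous and 106.0 ± 4.27 TPM in virgin hearts, Ankrd52 at 34.4 ± 2.81 TPM in multiparous and 35.1 ± 3.95 TPM in virgin hearts, and Ankrd50 at 21.3 ± 1.92 TPM in multiparous and 19.0 ± 1.72 TPM in virgin hearts.

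Genes beside the members on the chromosome were compared in the same fit. Within 50 kb of Ankrd23 lay 9 genes, of which 5 were tested with log2 fold changes of -0.16 to 0.15 and 0 calls by edgeR, DESeq2 or voom. Of these, 1 gene, Cnnm3, had an unadjusted p under 0.05 (log2 fold change 0.15). Ankrd39, a further ankyrin repeat gene on the same strand whose 3′ end lies 624 bases from Ankrd23, measured 4.36 ± 0.538 CPM in multiparous hearts, against 4.88 ± 0.670 CPM in virgin ones. Of 5 genes within 50 kb of Ankrd2, 4 were tested, with log2 fold changes of -0.22 to 0.05 and 0 calls. The only gene within 50 kb of Ankrd1 was Rpp30, with a log2 fold change of -0.05. None of the tested neighbours had the size of difference seen for Ankrd23. Gm42417, which overlaps Ankrd23, did not pass the filter and has no fold change.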

How the data were processed

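The submitters' processing notes name STAR 2.7.11b and HTSeq 0.11.1, with GRCm38.p6 as the genome build and Trim Galore 0.6.10, cutadapt 4.8 and SAMtools 1.19.2 among the other tools. The kit marks strand, per the labels' protocols, while the counting's strand setting and gene annotation were not given in the sources used. The authors deposited raw counts for 55487 genes per library, without normalization. Reads not assigned to a gene, ambiguous ones included, made up 26.5% to 33.1% per library and were left out of totals and fits.

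The main test was that of edgeR 4.0.16 under R 4.3.3 (TMM factors, filterByExpr, quasi-likelihood F-test on group alone) with Benjamini-Hochberg adjustment over all tested genes. SE come from the F statistic. CPM are scaled by TMM, and log2 CPM use a prior count of 2. TPM use exonic lengths of GENCODE M21 (GRCm38), matched by identifier without version for 99.53% of genes. Log2 fold changes are multiparous minus virgin, or MP minus P. Within-group correlations and spreads used exact two-sided permutation. Poisson intervals and the floor of 3 counts cover counting error only. The labels give 8 mice a group and do not tie each library to a separate mouse, so a p-value reflects only how these libraries vary.

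The members, the gene lists and the tests were chosen with earlier results of these data known. The members are named in full, in each list the called genes or up to 4 with the smallest p, and per member the 5 genes most like it. Other listed genes named were chosen after their values were seen. Alternatives were DESeq2 1.42.0, voom in limma 3.58.1, changed factors, filters and thresholds, a fit with a replicate block, each code alone, a kidney covariate, and leaving out each library.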

Additional observations from a re-analysis of the deposited data

How the results depend on the processing

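Ankrd23 had a negative log2 fold change, multiparous minus virgin, in all 27 alternatives run (-0.82 to -0.52), as did Ankrd1 (-0.39 to -0.21), while Ankrd2 ran from -0.70 to 0.32 and was negative in 23 of 26. MP minus P, Ankrd23 stayed between -0.34 and -0.23 in 15 alternatives and Ankrd1 between -0.21 and 0.20. No correlation or spread passed in any alternative.

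Calls depended far more on the processing. Against 2 genes called between multiparous and virgin hearts, 130 were called by DESeq2, 0 without scaling factors, 56 without a filter on low counts, 39 at an adjusted p under 0.1, 0 with MP-coded and 97 with P-coded libraries alone, and 0 with the kidney covariate. In edgeR, Ankrd23 was not called without scaling factors, with either code alone or with the covariate. Leaving out 1 library gave 0 to 55 calls (55 without virgin replicate 7). Ankrd23 passed in 7 of 16 such fits. Against 22 genes called between MP-coded and P-coded hearts, 295 were called by DESeq2, 13 by voom, 7 without scaling factors, 389 without a filter, 11 at a mean of at least 1 CPM and 89 at an adjusted p under 0.1. Leaving out 1 library gave 3 to 197 calls (197 without multiparous replicate 5, and 3 without replicate 1 or 7). The cause was not tested.

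With the replicate number as a replicate block, 33 genes were called, and the log2 fold changes were -0.64 for Ankrd23, -0.32 for Ankrd1 and -0.28 for Ankrd2. The numbers did not pair the libraries: deviations of same-numbered libraries correlated at -0.16 to 0.29, and 1 of 8 multiparous libraries correlated best with its own number. Ankrd2 is limited by depth, at 0 to 27 counts a library.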
